A study of Arabidopsis thaliana with 24 samples.

Results

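BGLU24 (AT5G28510), BGLU27 (AT3G60120) and BGLU40 (AT1G26560) are 3 Arabidopsis genes of the beta-glucosidase family whose transcripts were higher in salt-treated roots than in untreated roots. They were chosen by name because of that response, which these same arrays had shown, so their salt differences are given below as a description and carry no test. They are 3 of the 20 genes whose symbol is BGLU plus a number and that could be read from a probe set with 1 gene, and the other 17 serve as the background. Each of the 20 had 1 such probe set. The array named 13350 genes and held 22746 tested probe sets.

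Beta-glucosidases of this plant family cut a glucose unit from small molecules that the cell stores in glucosylated, usually inactive form. Depending on the member, the released compounds include defence chemicals, the hormone abscisic acid, coumarins and the alcohols from which lignin is built. Enzyme and substrate are often kept in separate compartments, and in Arabidopsis roots the best known member, PYK10 (also called BGLU23), fills compartments of the endoplasmic reticulum known as ER bodies. BGLU24 belongs to the same subfamily as PYK10, whereas no particular substrate of BGLU27 or BGLU40 is stated here.

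Roots came from 6-week-old plants in hydroponic culture, and some labels also speak of seedling roots. The double knockout bzip1/bzip53, a line mutated in the genes of a pair of bZIP transcription factors, and its Col-0 wild type were each sampled untreated and at 3 times of exposure to 150 mM NaCl, namely 1 h, 3 h and 6 h. Each of the 8 groups had 3 Affymetrix ATH1 arrays, whose titles call them biological replicates. How plants were shared out among the replicates is not labelled, and a p-value here reflects only the variation from array to array. Salt-treated roots of both genotypes were collected together, with no separate time given for the untreated roots.

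Array medians ran from 6.54 to 6.67 (log2). BZIP53, 1 of the knocked-out genes, averaged 9.19, 8.74, 8.86 and 9.004 in mutant roots in the control and at 1 h, 3 h and 6 h, against 10.57, 11.01, 11.00 and 10.93 in wild-type roots. It was called lower in the mutant in all 4 conditions (limma adjusted p between 3.94e-11 and 2.18e-07). No probe set carried the name of bZIP1. The 25S ribosomal RNA probe set read 13.03 to 13.47 on the 18 salt arrays and 11.93 to 12.71 on the 6 control arrays, and mutant control array 1 alone showed a bacterial spike-in signal (dap, 8.34). Salt differences move with that ribosomal signal, and its part in them was not tested. A log2 level under 5 is called near background here (bacterial control probe sets read 2.91 to 3.49), and a difference that starts there has no exact size. The root hair expansin genes EXPA7 and EXPA18 were the 2 of 12 root markers that could be read, and of 8 leaf markers only RCA, for a protein that activates the carbon-fixing enzyme, could be read. EXPA7 stood at -0.90, -1.24 and -1.95 against control in the mutant and at -1.06, -1.71 and -1.89 in wild type at 1 h, 3 h and 6 h. EXPA18 stood at -1.88, -2.49 and -2.02 in the mutant and at -1.69, -1.81 and -2.04 in wild type. All of these differences were called lower, and neither gene was called between genotypes (at 3 h 0.31 for EXPA7 and -0.53 for EXPA18, adjusted p = 0.0792 for EXPA18). RCA was called higher than control in the mutant at 6 h (0.56, adjusted p = 0.0441). The part of these markers in the salt differences below was not tested.

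BGLU24 showed the largest difference of the 3 genes, and it was already higher at 1 h. In mutant roots its probe set read 4.86, 4.17 and 3.88 in the control, 6.65, 4.89 and 7.31 at 1 h, 10.14, 9.81 and 10.06 at 3 h, and 9.87, 9.85 and 9.70 at 6 h (log2, arrays 1 to 3). In wild-type roots it read 4.02, 4.22 and 4.22 in the control, 6.24, 5.80 and 6.88 at 1 h, 9.55, 9.03 and 8.98 at 3 h, and 10.23, 9.29 and 10.76 at 6 h. Every salt array of either genotype was above every control array of its genotype, by a narrow margin for mutant 1 h array 2, and the 3 h and 6 h arrays stood far above the 1 h arrays.

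The salt minus control difference of BGLU24 was 1.98, 5.70 and 5.50 in the mutant and 2.15, 5.03 and 5.94 in wild type at 1 h, 3 h and 6 h (log2, SE 0.438). Both control means, 4.30 ± 0.50 in the mutant and 4.15 ± 0.12 in wild type (SD, n = 3), lay near background. Without mutant control array 1, which carried the spike-in signal and the highest control reading of BGLU24, the mutant differences at 3 h and 6 h were 5.97 and 5.78. Between 3 h and 6 h the level moved by -0.19 in the mutant and by 0.91 in wild type.

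**Figure D1:**
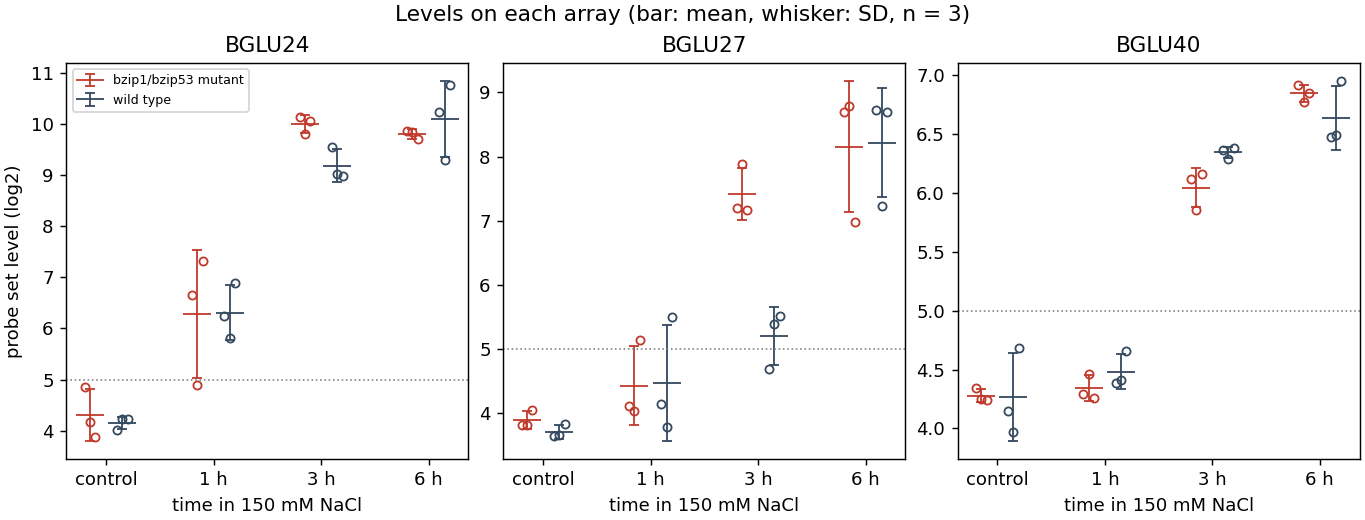
Probe set level (log2) of BGLU24, BGLU27 and BGLU40 on each array, by time in 150 mM NaCl, with the mutant left of the wild type. Open circles are arrays, bars are means, whiskers are SD (n = 3), and the dotted line at 5 marks the near-background bound. At 3 h the mutant arrays of BGLU27 (7.17 to 7.88) lie above the wild-type arrays (4.68 to 5.52), and at 6 h both genotypes overlap.

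BGLU27 stayed near background for longer than BGLU24, and its level differed between the genotypes at 3 h. In mutant roots it read 3.81, 3.81 and 4.05 in the control, 4.12, 4.03 and 5.14 at 1 h, 7.20, 7.88 and 7.17 at 3 h, and 8.70, 8.79 and 6.97 at 6 h. In wild-type roots it read 3.63, 3.65 and 3.83 in the control, 4.13, 3.78 and 5.49 at 1 h, 4.68, 5.39 and 5.52 at 3 h, and 8.72, 7.23 and 8.69 at 6 h. The mutant had thus left the near-background range by 3 h on all 3 arrays, whereas wild type was still close to it then and stood high only at 6 h.

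The salt difference of BGLU27 was 0.54, 3.53 and 4.26 in the mutant and 0.77, 1.49 and 4.51 in wild type at 1 h, 3 h and 6 h (SE 0.478). Most of the mutant's step came between 1 h and 3 h (2.99, with 0.73 between 3 h and 6 h), and most of the wild type's between 3 h and 6 h (3.02, with 0.73 between 1 h and 3 h). Array 3 at 1 h was the highest of its group in both genotypes, and mutant array 3 and wild-type array 2 were the low readings at 6 h.

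BGLU40 had the smallest salt difference of the 3 genes at 1 h and at 6 h in both genotypes. In mutant roots it read 4.34, 4.25 and 4.24 in the control, 4.30, 4.47 and 4.26 at 1 h, 6.12, 5.85 and 6.17 at 3 h, and 6.92, 6.78 and 6.85 at 6 h. In wild-type roots it read 4.15, 3.97 and 4.69 in the control, 4.39, 4.41 and 4.65 at 1 h, 6.36, 6.29 and 6.38 at 3 h, and 6.48, 6.49 and 6.95 at 6 h. Control and 1 h arrays overlapped near background in both genotypes, and the 3 h and 6 h arrays all lay above them.

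The salt difference of BGLU40 was 0.06, 1.77 and 2.57 in the mutant and 0.21, 2.08 and 2.37 in wild type at 1 h, 3 h and 6 h (SE 0.146). No threshold for membership was stated. At 6 h the next genes of the family below BGLU40 were BGLU32 (2.25) and BGLU46 (2.21) in the mutant, and BGLU46 (1.97) and BGLU31 (1.62) in wild type. At 3 h BGLU46 (2.24 in the mutant, 1.64 in wild type) lay above BGLU40 in the mutant and above BGLU27 in wild type.

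Mutant and wild type were compared with limma, and a probe set was called at a Benjamini-Hochberg adjusted p under 0.05 over all 22746. The rule does not say in which genotype the salt response of the 3 genes was seen, so comparisons of salt-treated roots share arrays with the choice. BGLU27 at 3 h was called and was 4.66-fold higher in the mutant, at 7.42 ± 0.40 against 5.20 ± 0.45 in wild type (log2, SD, n = 3). The difference was 2.22 with a 95% interval of 1.22 to 3.22 (adjusted p = 0.00672), and the mutant arrays lay entirely above the wild-type arrays. How many of all probe sets were without overlap at 3 h was not worked out. It remained called without any 1 of the 6 arrays compared (differences of 1.96 to 2.38, adjusted p of 0.0165 to 0.0389). At 3 h the background was high, since 10.2% of all probe sets were called in either direction. The leaf marker RCA was called lower in the mutant at 3 h, at 5.61 ± 0.12 against 6.47 ± 0.59 in wild type (-0.86, adjusted p = 0.0197), without overlap, and its part in the difference of BGLU27 was not tested. In whole roots, more transcript per cell and more cells with the transcript cannot be told apart.

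BGLU27 did not pass in the other conditions. Untreated roots differed by 0.19 (adjusted p = 0.937), roots at 1 h by -0.04 and roots at 6 h by -0.06 (adjusted p = 0.974, interval -1.06 to 0.94). These intervals leave room for differences of about the size of 1 log2 unit either way. Over the mean of the 4 conditions it was 0.58 (adjusted p = 0.160).

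At 3 h BGLU24 stood higher and BGLU40 lower in the mutant, and neither difference was called. BGLU24 was at 10.00 ± 0.17 in the mutant and 9.18 ± 0.32 in wild type, a difference of 0.82 (interval -0.10 to 1.73, adjusted p = 0.244). BGLU40 was at 6.05 ± 0.17 in the mutant and 6.34 ± 0.048 in wild type, a difference of -0.30 (interval -0.60 to 0.01, adjusted p = 0.201). With only the 2 groups in the fit BGLU24 was called (adjusted p = 0.0199). In the control, at 1 h and at 6 h, BGLU24 differed by 0.15, -0.03 and -0.29, and BGLU40 by 0.01, -0.14 and 0.21, none of them called. Their means over 4 conditions differed by 0.16 and -0.06.

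Of the 3 genes, 1 was called between genotypes at 3 h and 0 in the other 3 conditions and in the mean of the 4. Over all probe sets, the share called was 0.211% for untreated roots, 0.022% at 1 h, 10.2% at 3 h, 0.589% at 6 h and 3.57% in the mean. At an unadjusted p under 0.05 limma gave 0 of the 3 genes without salt, at 1 h or at 6 h. It gave 1 at 3 h and 1 in the mean, BGLU27 in both. Of all probe sets, 26.3% passed that bound at 3 h and 22.7% in the mean.

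**Figure D2:**
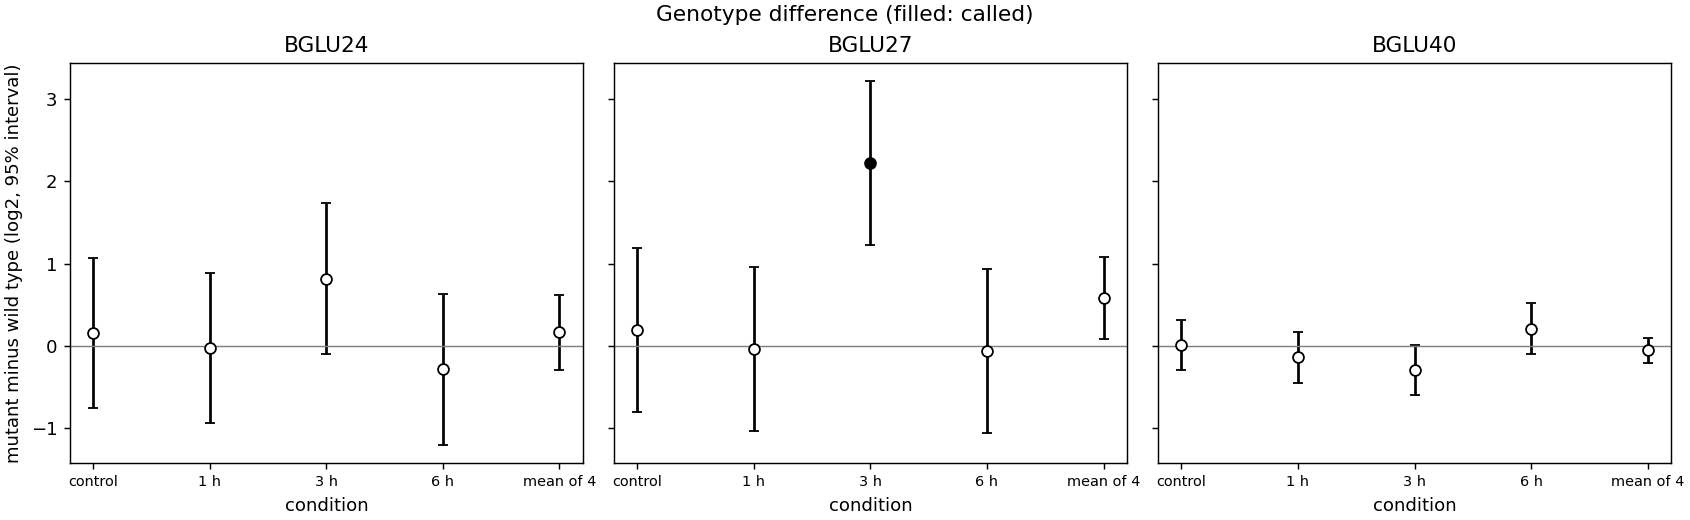
Mutant minus wild type (log2) for the 3 genes before salt, after 1 h, 3 h and 6 h, and over the mean of the 4 conditions, with 95% intervals. Filled points were called. BGLU27 at 3 h (2.22) is the only filled point.

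Whether the salt response itself differed was asked by subtracting the wild-type salt difference from that of the mutant. The 3 genes were chosen by those salt differences, so for them this comparison is not independent of the choice. None of the 3 genes was called at any time. BGLU27 at 3 h came nearest, with 2.03 (SE 0.676, interval 0.62 to 3.45, unadjusted p = 0.00695, adjusted p = 0.139). With only the 12 arrays of those 4 groups in the fit it was called (adjusted p = 0.00799), which is no independent support. BGLU24 at 3 h was at 0.67 and BGLU40 at -0.31, with adjusted p of 0.661 and 0.504. The shares of all probe sets called in this comparison were 0% at 1 h, 1.46% at 3 h and 0.0791% at 6 h, and at an unadjusted p under 0.05 limma counted 0, 1 and 0 of the 3 genes, beside 3.65%, 15.9% and 7.45% of all probe sets.

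The timing between 3 h and 6 h was compared after the levels had been seen, as the mutant's 6 h minus 3 h step less that of wild type. For BGLU27 it was -2.28 (SE 0.676, interval -3.69 to -0.87) and just missed the call (adjusted p = 0.0514), while 5.76% of all probe sets were called. It was called with array weights (-2.57, adjusted p = 0.00860), with dim probe sets left out (adjusted p = 0.0421) and without 2 of the 12 single arrays. The filter on dim probe sets kept those with a mean of at least 5 in any group. BGLU27 passed it only through its 3 h and 6 h groups, so the call under that filter is no support. For BGLU24 the value was -1.11 (adjusted p = 0.339) and for BGLU40 it was 0.51 (adjusted p = 0.164). The salt arrays compared also entered the choice of the 3 genes.

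The other 17 genes of the family were what remained once the 3 salt-induced genes had been taken out. None was picked for its own values, and their salt differences were tested. Counts, shares and medians of the 17 leave out the 3 genes with the largest rise at 6 h, so they do not describe the whole family. In mutant roots 3 were called higher and 1 lower at 1 h, 5 and 0 at 3 h, and 6 and 0 at 6 h. In wild-type roots 1 was called higher and 2 lower at 1 h, 2 and 1 at 3 h, and 5 and 3 at 6 h. Over all probe sets the shares called higher and lower were 10.6% and 13.5%, 17.4% and 28.1%, and 18.1% and 29.8% at 1 h, 3 h and 6 h in the mutant. In wild type they were 9.33% and 15.4%, 12.4% and 23.5%, and 16.4% and 31.1%. At 6 h, 35.3% of the 17 were thus called higher in the mutant and 29.4% in wild type. Their median difference at 6 h was 0.11 in the mutant and 0.10 in wild type, beside -0.08 over all probe sets in either genotype.

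Of the 17 genes, 8 lay near background in all 8 groups (BGLU19, BGLU28, BGLU29, BGLU33, BGLU36, BGLU41, BGLU43 and BGLU47), and 6 lay above it in all of them. The 5 genes called higher at 6 h in both genotypes were BGLU25, BGLU31, BGLU32, BGLU45 and BGLU46, and they are described next.

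**Figure D3:**
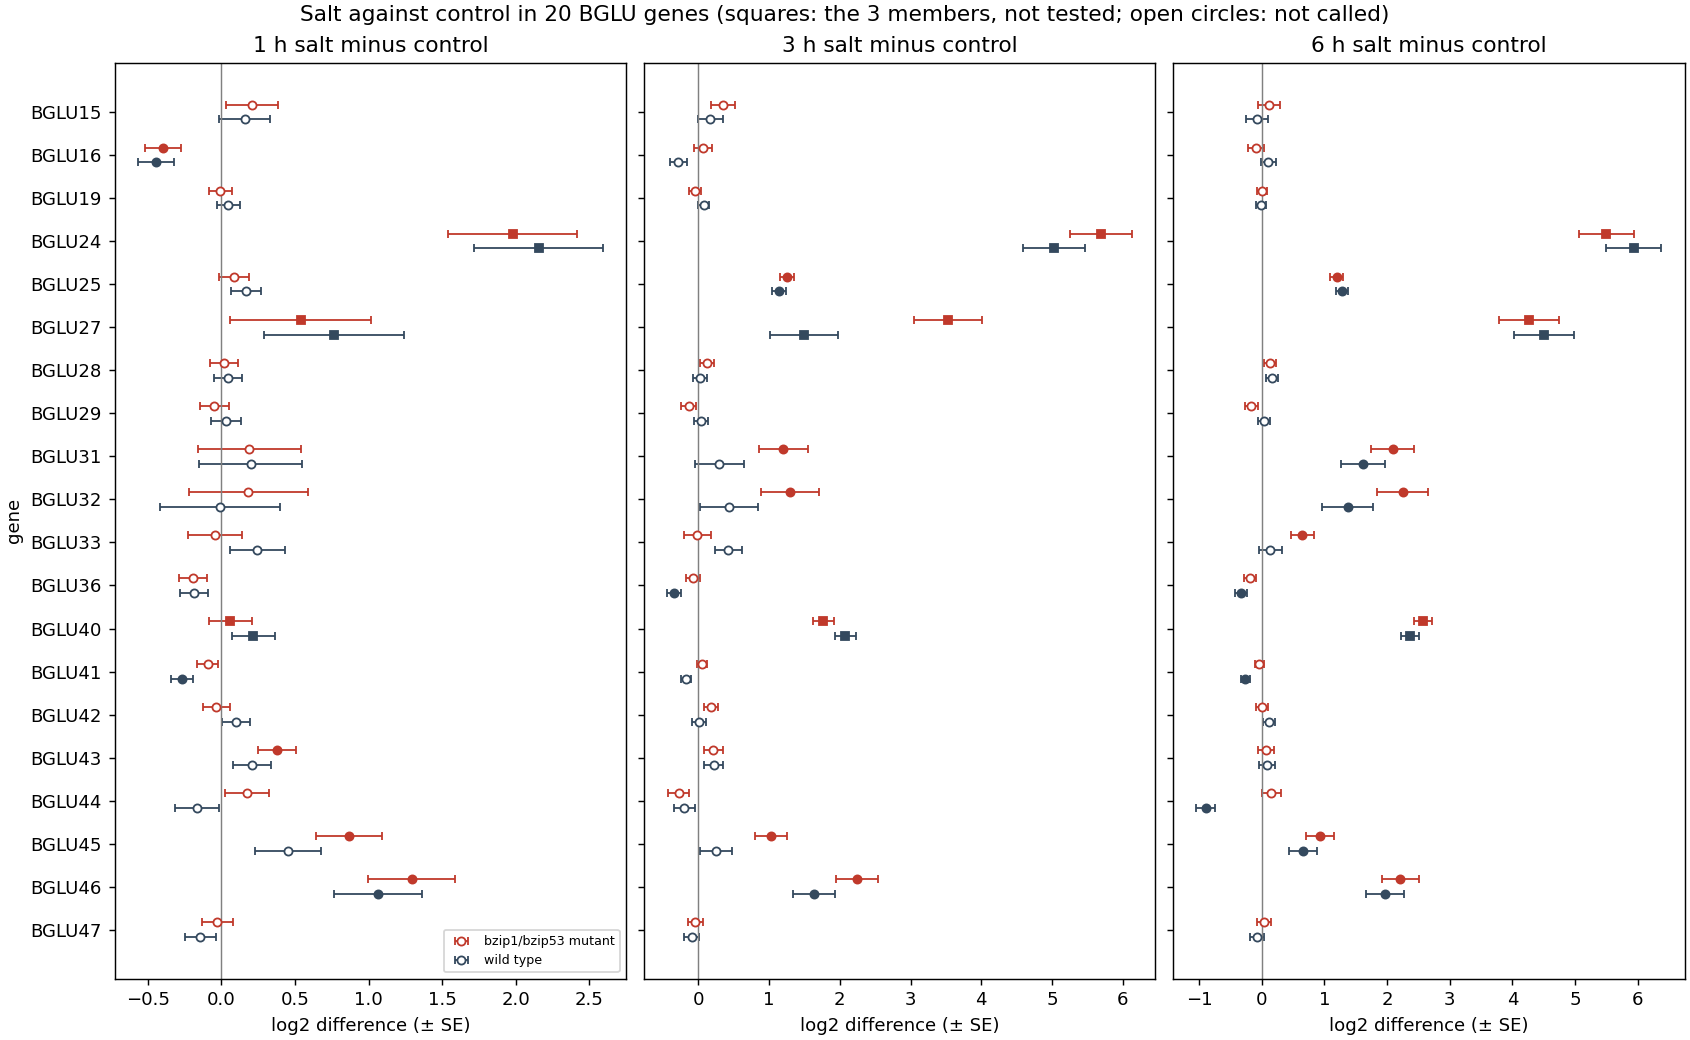
Salt minus control difference (log2, whiskers are SE) for the 20 BGLU genes at 1 h, 3 h and 6 h, with the mutant above the wild type. Squares are BGLU24, BGLU27 and BGLU40, which carry no test, filled circles were called and open circles were not. At 6 h BGLU24 (5.50 in the mutant, 5.94 in wild type) and BGLU27 (4.26 and 4.51) lie to the right of every other gene.

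BGLU25, of the PYK10 subfamily like BGLU24, was well above background throughout. In mutant roots it read 8.72, 8.59 and 8.55 in the control, 9.97, 9.73 and 9.91 at 3 h and 9.96, 9.71 and 9.77 at 6 h. In wild-type roots it read 8.58, 8.54 and 8.50 in the control, 9.81, 9.77 and 9.45 at 3 h and 9.76, 9.78 and 9.90 at 6 h. The control arrays lay below all 3 h and 6 h arrays, and the rise at 6 h was 1.19 in the mutant and 1.28 in wild type (SE 0.103, adjusted p = 9.77e-09 and 4.51e-09).

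BGLU45 and BGLU46 encode enzymes that release lignin alcohols from their glucosides, and they are neighbours on chromosome 1 in the RefSeq gene table. BGLU46 rose by 1.29, 2.24 and 2.21 in the mutant and by 1.06, 1.64 and 1.97 in wild type at 1 h, 3 h and 6 h (SE 0.298), all called. It averaged 10.46 ± 0.17 in the mutant and 10.18 ± 0.38 in wild type at 6 h, against controls of 8.25 ± 0.28 and 8.22 ± 0.28 (SD, n = 3). Without wild-type control array 2 or 1 h array 3 the 1 h call in wild type ended, with differences between 0.69 and 1.30 over the left-out arrays. BGLU45 rose by 0.86, 1.03 and 0.93 in the mutant at the 3 times (adjusted p = 0.00761, 0.000774 and 0.00168), from a control mean of 4.86. Its 1 h call was lost without mutant 1 h array 3 (0.68, adjusted p = 0.0569). In wild type it rose at 6 h (0.66, adjusted p = 0.0198), a call lost without control array 2 or 6 h array 3 (0.41 at the lowest).

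BGLU31 and BGLU32 are neighbours on chromosome 5, and no substrate is stated here for either. BGLU31 read 4.82, 5.35 and 4.46 in the mutant and 3.59, 3.64 and 4.39 in wild type at 3 h, and 5.95, 6.11 and 5.22 in the mutant and 5.04, 4.43 and 6.14 in wild type at 6 h. BGLU32 read 4.18, 4.94 and 4.05 in the mutant and 3.27, 3.45 and 3.95 in wild type at 3 h, and 5.75, 6.04 and 4.22 in the mutant and 3.92, 3.94 and 5.64 in wild type at 6 h. Both genes were near background in every control and 1 h group. At 3 h they still were in both genotypes (means of 4.87 in the mutant and 3.88 in wild type for BGLU31, and 4.39 in the mutant and 3.56 in wild type for BGLU32), as was BGLU32 in wild type at 6 h (4.496), so their differences have no exact size. At 3 h every mutant array of each gene lay above every wild-type array, and at 6 h the genotypes overlapped. Neither genotype difference at 3 h was called, and the share of all probe sets without overlap was not worked out.

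The rise against control was called at 3 h in the mutant for BGLU31 (1.20, adjusted p = 0.00742) and BGLU32 (1.30, adjusted p = 0.0127), and in wild type neither was called there (0.29 for BGLU31, adjusted p = 0.557). At 6 h BGLU31 rose by 2.09 in the mutant and 1.62 in wild type, and BGLU32 by 2.25 and 1.37. The wild-type call of BGLU32 was lost without 6 h array 3 (0.80, adjusted p = 0.0833), and its mutant call at 3 h without 3 h array 2 (1.02, adjusted p = 0.0756). The genotype difference at 3 h was not called for BGLU31 (1.00, adjusted p = 0.0713), BGLU32 (0.83, adjusted p = 0.199), BGLU46 (0.64, adjusted p = 0.178) or BGLU45 (0.51, adjusted p = 0.152).

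**Figure D4:**
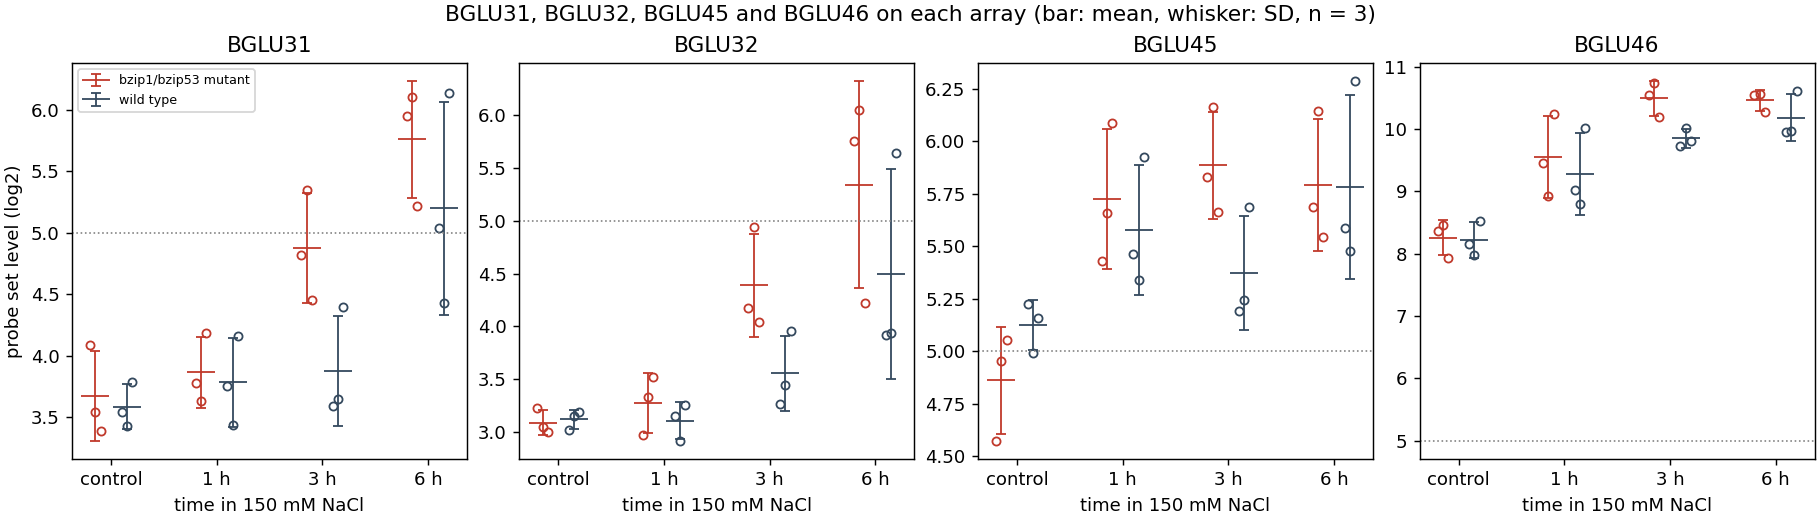
Probe set level (log2) of the neighbouring genes BGLU31 and BGLU32 and of BGLU45 and BGLU46 on each array, by time in 150 mM NaCl, with the mutant left of the wild type. Open circles are arrays, bars are means, whiskers are SD (n = 3), and the dotted line at 5 marks the near-background bound. At 3 h the mutant arrays of BGLU31 (4.46 to 5.35) lie above the wild-type arrays (3.59 to 4.39), a genotype difference that was not called.

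Other family members fell or moved little. BGLU44, whose enzyme cuts mannose-containing sugars, was at 7.55 ± 0.27 in the mutant and 6.92 ± 0.20 in wild type at 6 h. It fell by 0.90 in wild type at 6 h (SE 0.149, adjusted p = 4.58e-05) and stood at 0.15 in the mutant without a call. BGLU36 (-0.33, adjusted p = 0.00768) and BGLU41 (-0.26, adjusted p = 0.00534) fell in wild type at 6 h within the near-background range. The call of BGLU41 was lost with only the 2 groups in the fit (adjusted p = 0.0629). BGLU36 had also fallen in wild type at 3 h (-0.35), a call lost without wild-type 3 h array 2 (-0.27, adjusted p = 0.0540), and BGLU41 at 1 h (-0.27). BGLU43, near background as well, was called higher in the mutant at 1 h (0.38, adjusted p = 0.0393), a call that ended without mutant control array 1 or 3 or 1 h array 1 or 2. BGLU16, the neighbour of BGLU27 on chromosome 3, fell at 1 h by 0.39 in the mutant and 0.45 in wild type (adjusted p = 0.0235 and 0.0107), and was not called at 3 h or 6 h. Its calls at 1 h were lost without mutant control array 3 or mutant 1 h array 1 or 2, and without wild-type control array 3 (-0.27). BGLU24 and BGLU40 have no family neighbour in that table.

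Between genotypes, 2 of the 17 were called at 3 h, a share near the 10.2% of all probe sets. They were BGLU36, higher in the mutant (0.35, adjusted p = 0.0273), and BGLU44, lower (-0.50, adjusted p = 0.0393). The call of BGLU44 was lost without any 1 of the 6 arrays (-0.55 to -0.44), and that of BGLU36 without wild-type 3 h array 2 or mutant 3 h array 2 or 3 (0.27 to 0.40). BGLU36 was also called in the mean of the 4 conditions (0.18, adjusted p = 0.0470), a call that ended without any of 19 of the 24 arrays. In the control, at 1 h and at 6 h limma called 0 of the 17. At an unadjusted p under 0.05 it gave 2, 0, 8 and 4 of them before salt, at 1 h, 3 h and 6 h, beside 10%, 3.32%, 26.3% and 13.3% of all probe sets. It called 0 of the 17 for the difference of responses at the 3 times, with 0, 2 and 2 at that unadjusted p, beside 3.65%, 15.9% and 7.45% of all probe sets.

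Across the 24 arrays the levels of the 3 genes ran together, which their shared salt response brings about by the choice of members. Pearson's r was 0.919 for BGLU24 with BGLU40, 0.879 for BGLU24 with BGLU27 and 0.860 for BGLU27 with BGLU40. After each group's mean was taken away, the r over the 24 deviations was 0.177, 0.483 and 0.146 for the same pairs. Among the other BGLU genes, the deviations of BGLU27 correlated most with those of BGLU31 (0.748), BGLU45 (0.726), BGLU32 (0.689) and BGLU46 (0.680). Its lowest value was -0.362, with BGLU29. The deviations of BGLU24 correlated most with those of BGLU46 (0.719) and BGLU15 (0.698), and its lowest value was -0.391, with BGLU29. BGLU15 had no salt call at any time in either genotype. These values share arrays, and within a group each rests on 3 of them. Differences between whole arrays also enter the deviations, and their part was not tested.

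**Figure D5:**
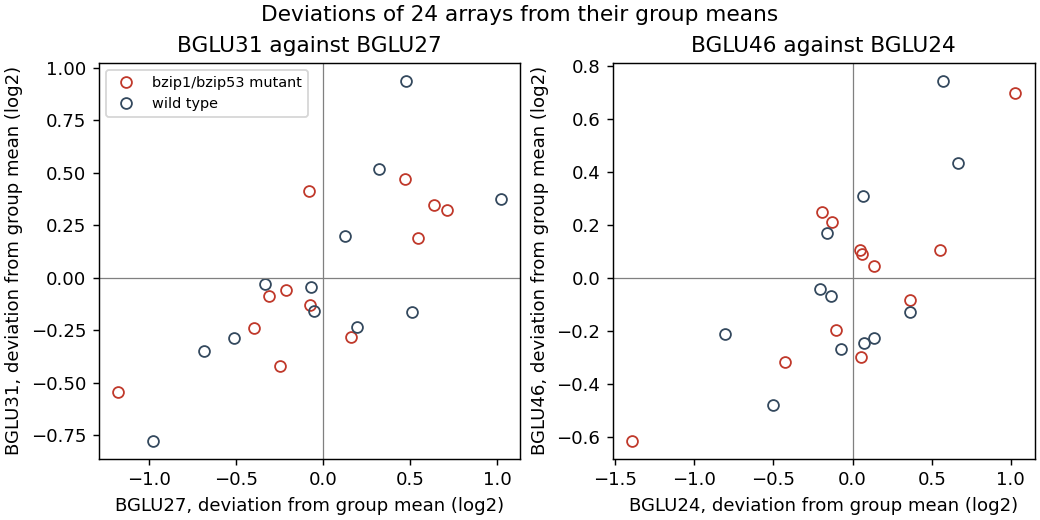
Deviation of each of the 24 arrays from its group mean (log2) for BGLU31 against BGLU27 and for BGLU46 against BGLU24, with mutant arrays in red and wild-type arrays in dark blue. Pearson's r is 0.748 in the left panel and 0.719 in the right panel.

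Among the 13349 other named genes, those whose levels over the 24 arrays were most like BGLU24 were AT3G17110 (r = 0.991), AT5G12010 (0.987), the small heat shock protein gene AT5G51440 (0.984), GFAT (0.982) and AT1G73480 (0.981). The genes most like BGLU27 were AT5G44990 (0.976), AT3G60420 (0.975), AT3G09405 (0.970), AT3G47480 (0.970) and the glutathione transferase gene GSTU25 (0.970). For BGLU40 they were AT2G41730 (0.972), AT5G19440 (0.970), AT4G39955 (0.967), the carboxypeptidase-like gene scpl30 (0.967) and AT1G59740 (0.966). The 3 sets of 5 shared no gene, but each was cut at 5 and no expected overlap was worked out. No separate partners of the 3 genes are read from that. Arrays of 1 group are not independent, and these r values are a description.

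Genes around the known beta-glucosidase pathways were counted by list. Of the 24 ER body genes listed, 10 were measured. In the mutant 0, 2 and 5 of the 10 were called higher and 3, 2 and 0 lower at 1 h, 3 h and 6 h, and in wild type 0, 2 and 4 higher and 2, 1 and 0 lower. Of all probe sets, 10.6%, 17.4% and 18.1% were called higher and 13.5%, 28.1% and 29.8% lower in the mutant, and 9.33%, 12.4% and 16.4% higher and 15.4%, 23.5% and 31.1% lower in wild type. The median of the 10 at 6 h was 0.21 in the mutant and 0.15 in wild type, beside -0.08 over all probe sets in both.

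PYK10 itself read 11.95, 11.98 and 12.06 in the mutant and 12.59, 12.43 and 12.30 in wild type at 3 h. The mutant arrays all lay below the wild-type arrays, and the difference of -0.44 was called (adjusted p = 0.0225). At 6 h it had risen against control in both genotypes, by 0.38 in the mutant and 0.34 in wild type. JAL22, for a lectin of the PYK10 complex, was also lower in the mutant at 3 h (-0.75, adjusted p = 0.0412) and had risen by 6 h, by 1.51 in the mutant and 0.89 in wild type. JAL33, a second such lectin gene, rose by 0.79 in the mutant and 0.54 in wild type at 6 h. PYK10 and JAL22 were the 2 of the 10 measured ER body genes called between genotypes at 3 h, and 8 were not called. Of all probe sets, 10.2% were called there in either direction. The median genotype difference of the 10 at 3 h was -0.05, beside -0.009 over all probe sets.

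The lignin alcohol list had all 6 genes measured. BGLU45 and BGLU46 were higher, as given above, whereas UGT72E3 and UGT72E1, for enzymes that attach glucose to lignin precursors, fell. At 6 h UGT72E3 fell by 1.67 in the mutant and 1.46 in wild type, and UGT72E1 by 1.24 in the mutant and 0.85 in wild type. At 3 h UGT72E1 (-0.62, adjusted p = 0.0209) and UGT72E2 (-0.61, adjusted p = 0.00716) were lower in the mutant than in wild type. The list's median at 6 h was -0.28 in the mutant and -0.18 in wild type, with -0.08 over all probe sets in both.

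Of 26 listed genes of the abscisic acid response, 5 were measured, and in the mutant 4, 4 and 5 and in wild type 3, 4 and 4 of them were called higher at the 3 times, with none lower. The shares of all probe sets called higher were 10.6%, 17.4% and 18.1% in the mutant and 9.33%, 12.4% and 16.4% in wild type. LEA4-5, for a protective protein made in drying tissue, rose by 6.07 in the mutant and 6.50 in wild type at 6 h from controls near background. At the same time LTI30, for a dehydrin, rose by 2.42 in the mutant and 2.59 in wild type, and COR47, for another dehydrin, by 1.23 and 1.44. COR15A rose by 3.95 in the mutant and 3.30 in wild type from controls near background. None of the 5 was called between genotypes at 3 h, beside 10.2% of all probe sets, although LEA4-5 differed by 1.19 (adjusted p = 0.0698). So few genes do not show that the genotypes were alike.

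Of 21 listed genes of abscisic acid synthesis, breakdown and glucosylation, 4 were measured. BGLU33, whose enzyme frees abscisic acid from its glucose ester, was at 4.51 ± 0.48 in the mutant and 3.97 ± 0.051 in wild type at 6 h, near background in both. It was called higher than control in the mutant (0.65, adjusted p = 0.00664), a call lost without 6 h array 1 (0.39), and stood at 0.13 in wild type without a call. UGT71B6, for an enzyme that makes that ester, rose by 0.77 in the mutant and 0.63 in wild type at 6 h, with all group means near background. Its wild-type 6 h arrays (4.29 to 5.46) overlapped the wild-type control arrays (4.20 to 4.43). At an adjusted p under 0.01 none of the list was called in wild type at 6 h. UGT71C5 and UGT71B8 were not called at 6 h.

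Only 2 of 19 coumarin and phenylpropanoid genes and 1 of 20 glucosinolate breakdown genes were measured. AT3G13610, for the enzyme that opens coumarin synthesis, fell at all times in both genotypes, at 6 h by 0.51 in the mutant and 0.50 in wild type, and was lower in the mutant at 3 h (-0.76, adjusted p = 0.0180). BGLU42, which acts on the coumarin glucoside scopolin, was not called at any time, nor was BGLU28, of glucosinolate breakdown. Of the 16 listed bZIP genes of the C and S1 groups only BZIP53 was measured.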

How the data were processed

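The authors deposited 1 table of log2 values for 24 arrays. RMA, affy and limma are named, with TAIR9 as the build and no versions, per the submitters' processing notes. The log2 scale was inferred from the range of 2.46 to 14.04, and the settings are not given in any source used here. After 64 control probe sets were left out, 22746 were tested. The platform table gave 1 gene symbol for 13513 probe sets, updated by Entrez identifier with a RefSeq table of assembly TAIR10.1 (13436 matched), which was used for names and neighbours only. Of 47 family genes in that table, by symbol or synonym, 22 were measured under a name of their own. Probe sequences were not analysed here, so signal shared between close family members was not tested.

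All arrays entered 1 fit of 8 group means in limma 3.58.1 (R 4.3.3), with moderated two-sided tests and 16 residual and 3.83 prior degrees of freedom. The number of arrays limits the precision. The fit was tested on simulated data with independent noise and added differences in 1 group. Those data held no effects shared by whole arrays, so the test cannot show how the fit handles them. Arrays of a group correlated at 0.985 to 0.997, and no 2 arrays shared more than 0.0352% of values. The members and lists were chosen with earlier results of these data known. Named genes were the 3 members, the other BGLU genes with the 4 highest and 4 lowest called, non-overlapping wild-type differences at 6 h or with a genotype call, the 5 genes most like each member, up to 4 genes of each list and BZIP53. BGLU15, BGLU16, BGLU33, BGLU43, PYK10 with its genotype values, and UGT72E2 were named after their values were seen. Alternatives were another normalization, array weights, other estimates of spread, a filter on dim probe sets, a replicate block, a stricter threshold and left-out arrays.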

Additional observations from a re-analysis of the deposited data

Results flagged for a closer look

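Of the 22 measured family genes, 3 differed between the genotypes in the step from 3 h to 6 h of salt by limma's test. That test was added after the levels had been seen, and it called 5.76% of all probe sets. None of the 3 genes is BGLU24, BGLU27 or BGLU40. BGLU44 stepped by 1.13 more in the mutant than in wild type (SE 0.211, adjusted p = 0.00461). Its level was 7.12 ± 0.11 at 3 h and 7.55 ± 0.27 at 6 h in the mutant, and 7.62 ± 0.11 and 6.92 ± 0.20 in wild type (log2, SD, n = 3). PYK10 stepped by 0.66 more in the mutant (SE 0.167, adjusted p = 0.0254), with 12.00 ± 0.054 and 12.89 ± 0.20 in the mutant and 12.44 ± 0.15 and 12.68 ± 0.23 in wild type. BGLU33 stepped by 0.95 more in the mutant (SE 0.262, adjusted p = 0.0382), all of it near background, and the call ended without any of 10 of the 12 arrays compared. BGLU44 stayed called without any 1 of its 12 arrays (adjusted p at most 0.0196). The call of PYK10 was not rerun under other settings or with arrays left out.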

How the results depend on the processing

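The genotype call of BGLU27 at 3 h held under every alternative run and without each single array. For the filter on dim probe sets this is no support, because BGLU27 passed it only through its salt groups. Replicate numbers were not used as pairs, since 6 of 12 same-number pairs of arrays correlated above 0.1 (-0.536 to 0.719). At 1 h all 3 such pairs did (0.177 to 0.719), and with only the 1 h arrays and that replicate block, tried after seeing this, still 0 family genes were called between genotypes (BGLU40 -0.14, adjusted p = 0.768). With the numbers over all arrays as a replicate block no call of BGLU24, BGLU27 or BGLU40 changed, but the count among the other 17 BGLU genes called between genotypes became 1 at 6 h and 0 in the mean of the 4 conditions, and BGLU43 (0.38 in the mutant at 1 h, adjusted p = 0.0512), BGLU36 (0.18 in the mean, adjusted p = 0.0539) and BGLU33 (0.95 for the step difference, adjusted p = 0.0505) lost their calls. The causes of the other changes below were not tested. No family gene had a second probe set, so that alternative gave no value. Signal near background limits what can be said of the controls and of 1 h.

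A second quantile normalization turned the sign of 2 small uncalled genotype differences, BGLU40 in the control (-0.0128) and BGLU24 at 1 h (0.000504), and gave 0, 1 and 0 other BGLU genes called between genotypes at 3 h, at 6 h and in the mean. Median centring turned BGLU24 at 1 h (0.00712), with 1 gene called at 3 h and 3 in the mean. With only the groups compared, BGLU24 at 3 h (0.82) and the difference of responses of BGLU27 at 3 h (2.03) were called. Both calls share arrays with the choice of the members. In that setting 1 other gene was lower in the mutant at 3 h, and 0 were higher and 1 lower in wild type at 1 h. Array weights turned BGLU24 in the control (-0.0862) and at 1 h (0.43), and its difference of responses at 1 h (0.52), and BGLU27's step difference was called (-2.57). They gave 2, 1 and 2 other genes lower in the mutant at 1 h, the mutant at 6 h and wild type at 3 h, and 6, 1 and 3 called between genotypes at 3 h, at 6 h and in the mean, and 1 in the difference of responses at 6 h. An intensity trend with robust estimation gave 1 gene between genotypes at 6 h and 1 in the difference of responses at 6 h. With dim probe sets left out, BGLU27's step difference (-2.28) was called. BGLU27 passed that filter only through its 3 h and 6 h groups. In that setting, 1, 0 and 1 other genes were lower in wild type at 1 h, 3 h and 6 h. Between genotypes, 1, 1 and 0 were called at 3 h, at 6 h and in the mean. At an adjusted p under 0.01 there were 0 other genes lower in the mutant at 1 h, 0 higher and 0 lower in wild type at 1 h, and 0 between genotypes at 3 h and 0 in the mean.

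Leaving out 1 array at a time moved the untested salt differences of BGLU24 in the mutant at 1 h over 1.46 to 2.67, and those of BGLU40 over -0.00123 to 0.101 in the mutant at 1 h and 0.065 to 0.424, 1.93 to 2.29 and 2.21 to 2.58 in wild type at 1 h, 3 h and 6 h. Uncalled genotype differences that changed sign were BGLU24 in the control (-0.127 to 0.363), at 1 h (-0.54 to 0.671) and at 6 h (-0.69 to 0.0458), BGLU27 at 1 h (-0.396 to 0.47) and 6 h (-0.551 to 0.53), and BGLU40 in the control (-0.139 to 0.22). Differences of responses that did so were BGLU24 at 1 h (-0.691 to 0.52), BGLU27 at 1 h (-0.583 to 0.283) and 6 h (-0.738 to 0.344), and BGLU40 at 6 h (-0.0106 to 0.355). BGLU27's step difference ran from -2.77 to -1.69. Among the other BGLU genes the counts ran from 0 to 2 (lower) in the mutant at 1 h, 0 to 1 (lower) in the mutant at 6 h, 0 to 1 (higher) and 1 to 2 (lower) in wild type at 1 h, 0 to 3 (lower) in wild type at 3 h, and 3 to 6 (higher) in wild type at 6 h, with 3 without 6 h array 3. Between genotypes they ran from 0 to 2 at 3 h, at 6 h and in the mean, and from 0 to 1 for the difference of responses at 6 h.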
